A study of Rattus norvegicus with 24 samples.

Results

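The 10 genes described here mark the mature granule neuron, the principal excitatory cell of the dentate gyrus: Prox1, Rfx3, Calb1, Trpc6, Dsp, Ntng1, C1ql3, Stxbp6, Plk5 and Il16. Their probe sets were chosen by name, as every probe set whose platform annotation symbol was exactly one of the 10, which gave 15 of the 31042 non-control probe sets on the array, for 10 of its 14217 named genes. Of these, 11 passed the filter on low values (a log2 value above 4 on at least 6 arrays), as did 15177 probe sets in all, and they cover all 10 genes. Every one of the 11 was above 4 on all 21 arrays, with a lowest value of 6.31. The other 4 probe sets, a further one each for Prox1, Rfx3, C1ql3 and Dsp, did not pass. All 10 markers of the cell type were therefore measured in the dissected tissue, in young and aged rats alike.

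Granule neurons receive the entorhinal input to the hippocampus and send mossy fibre axons to CA3 pyramidal cells. Their identity is held by transcription factors such as Prox1, and as newborn cells mature they switch from calretinin to calbindin, the product of Calb1. The other genes of the set encode proteins of cell contacts, synapses, ion entry and signalling that the granule cell layer expresses strongly.

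The study asked how gene expression in the dentate gyrus differs with age and with spatial learning. Each array, an Affymetrix design for the whole rat genome, received total RNA from the dissected dentate gyrus of 1 male Long-Evans rat that had been housed alone and given no treatment. The arrays with values comprised 8 from young rats (6 months old), 6 from aged unimpaired rats and 7 from aged impaired rats (both 24 to 26 months old), while 3 of the 24 labelled arrays, 1 in each group, have no values. Aged rats were called unimpaired when their learning index from a Morris water maze lay within the range of young rats, and impaired when it was worse. All rats had been through the maze 2 weeks before tissue was taken. The groups were set by age and performance, with no allele or agent. The labels name no batch, so whether the groups also differ in one is not known. Values are log2 probe set summaries made with GCRMA. The median of all probe sets lay between 3.77 and 3.84 on each array. Over the 15177 probe sets past the filter, the correlation between any pair of arrays lay between 0.984 and 0.994. The number of arrays limits the precision. The tissue is a bulk dissection, so fewer granule neurons and less RNA per granule neuron cannot be told apart in any value below. How much of each value comes from other cells in the dissection was not measured.

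The set of RefSeq promoters used here (GRCr8 assembly) held 7 of the 10 genes and lacked Prox1, Calb1 and Plk5. Of the 7, 5 are shown: that of the transcription factor Rfx3 and those of 2 of the pairs that varied together among rats. These pairs are Trpc6 with Stxbp6 and Dsp with Ntng1. The pair that varied together most, Rfx3 with Calb1, could not be shown in full. Each line gives the 250 bases before the annotated start, 5′ to 3′ on the gene's own strand, in lower case with the motif matches in capitals. The windows are chr1:235122423-235122672 on the minus strand for Rfx3, chr8:14043966-14044215 on the plus strand for Trpc6, chr6:67884339-67884588 on the minus strand for Stxbp6, chr17:26877122-26877371 on the minus strand for Dsp and chr2:200515032-200515281 on the minus strand for Ntng1.
Rfx3: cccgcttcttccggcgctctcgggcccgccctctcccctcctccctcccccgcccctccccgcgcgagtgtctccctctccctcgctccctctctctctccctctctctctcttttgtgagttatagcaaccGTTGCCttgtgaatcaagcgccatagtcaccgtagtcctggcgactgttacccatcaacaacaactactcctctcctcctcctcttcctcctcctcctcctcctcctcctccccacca
Trpc6: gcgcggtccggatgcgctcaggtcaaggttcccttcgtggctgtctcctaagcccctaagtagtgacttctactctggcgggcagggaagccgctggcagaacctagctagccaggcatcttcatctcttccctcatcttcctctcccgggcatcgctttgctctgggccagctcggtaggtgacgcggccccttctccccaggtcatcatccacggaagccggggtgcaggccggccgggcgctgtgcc
Stxbp6: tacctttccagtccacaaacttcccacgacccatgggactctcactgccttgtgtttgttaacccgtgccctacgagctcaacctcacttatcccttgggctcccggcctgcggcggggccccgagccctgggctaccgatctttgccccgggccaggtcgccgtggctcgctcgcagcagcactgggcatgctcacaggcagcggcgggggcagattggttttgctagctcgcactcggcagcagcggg
Dsp: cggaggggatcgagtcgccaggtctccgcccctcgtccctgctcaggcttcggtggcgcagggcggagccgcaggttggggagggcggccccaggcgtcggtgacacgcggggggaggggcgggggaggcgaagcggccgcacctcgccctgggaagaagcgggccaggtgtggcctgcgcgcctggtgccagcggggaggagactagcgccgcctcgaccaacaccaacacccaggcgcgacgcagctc
Ntng1: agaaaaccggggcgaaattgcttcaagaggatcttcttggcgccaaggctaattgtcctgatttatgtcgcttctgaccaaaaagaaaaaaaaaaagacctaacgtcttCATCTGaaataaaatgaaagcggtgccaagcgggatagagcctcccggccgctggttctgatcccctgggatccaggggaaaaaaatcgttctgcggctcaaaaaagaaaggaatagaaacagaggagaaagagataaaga
On both strands the windows were searched for GTTGCC (reverse complement GGCAAC), part of the site bound by RFX factors, and for CAGATG (reverse complement CATCTG), an E-box of the kind bound by proneural factors. The RFX motif was present in 1 of the 7 windows, that of Rfx3 itself, 118 bases before the start, and in 9.89% of 33469 RefSeq promoters of the same length. The E-box was present in 2 of the 7, Ntng1 at 141 bases and Il16 at 191 bases before the start, and in 14% of all promoters. These matches describe the letters only.

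No identity gene passed the test between any of the groups. In the mean of the aged rats, Dsp, Ntng1 and Plk5 were 1.62-fold, 1.33-fold and 1.28-fold higher than in young rats, and C1ql3, Rfx3 and Calb1 were 1.21-fold, 1.19-fold and 1.13-fold lower. For Prox1 and Trpc6 the log2 differences were -0.05 and 0.04. In limma with Benjamini-Hochberg adjustment over the 15177 probe sets, 0 of the 11 member probe sets passed at an adjusted p below 0.05 for aged against young rats, against 1.11% of all probe sets. At an unadjusted p below 0.05, 6 of 11 member probe sets were counted, 3 higher and 3 lower in aged rats, against 14.6% of all probe sets (5.06% higher and 9.53% lower). After quantile normalization, which moves that split to 7.85% higher and 7.53% lower, the members numbered 5 higher and 3 lower. An exact permutation test of the arrays, adjusted in the same way, called 0 members and 146 of all probe sets for this comparison. The difference was positive for 6 of the 11 member probe sets, against 43.2% of all. With 1 probe set per gene, the median difference of the 10 genes was -0.0035, and the median over all probe sets was -0.01.

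The same held for each aged group on its own. The 2 comparisons share the young arrays, so they are not independent of each other. For impaired against young rats 0 of 11 passed, against 0.514% of all probe sets, and 6 of 11 had an unadjusted p below 0.05 (3 higher, 3 lower) against 12.4% (7.69% higher, 4.73% lower). Median centring moved the split of all probe sets to 5.88% higher and 5.76% lower, and quantile normalization to 6.95% and 6.48%, with 4 members higher and 4 lower under the latter. For unimpaired against young rats 0 of 11 passed, against 1.13%, and again 6 of 11 had an unadjusted p below 0.05 (3 higher, 3 lower) against 17% (3.18% higher, 13.8% lower). Quantile normalization turned that split to 7.98% higher and 6.84% lower, with 4 members higher and 2 lower. Between impaired and unimpaired rats 0 of 11 passed and 0 had an unadjusted p below 0.05, where the shares of all probe sets were 0% and 14.5%. In the F test over the 3 groups 0 of 11 passed, against 0.896%, and 6 of 11 had an unadjusted p below 0.05, against 18.8%. The exact permutation test called 0 of all probe sets in each of these 3 pairwise comparisons, which says little: with these numbers of arrays, 48, 102 and 177 probe sets would have to share the smallest possible p before any could pass.

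**Figure D1:**
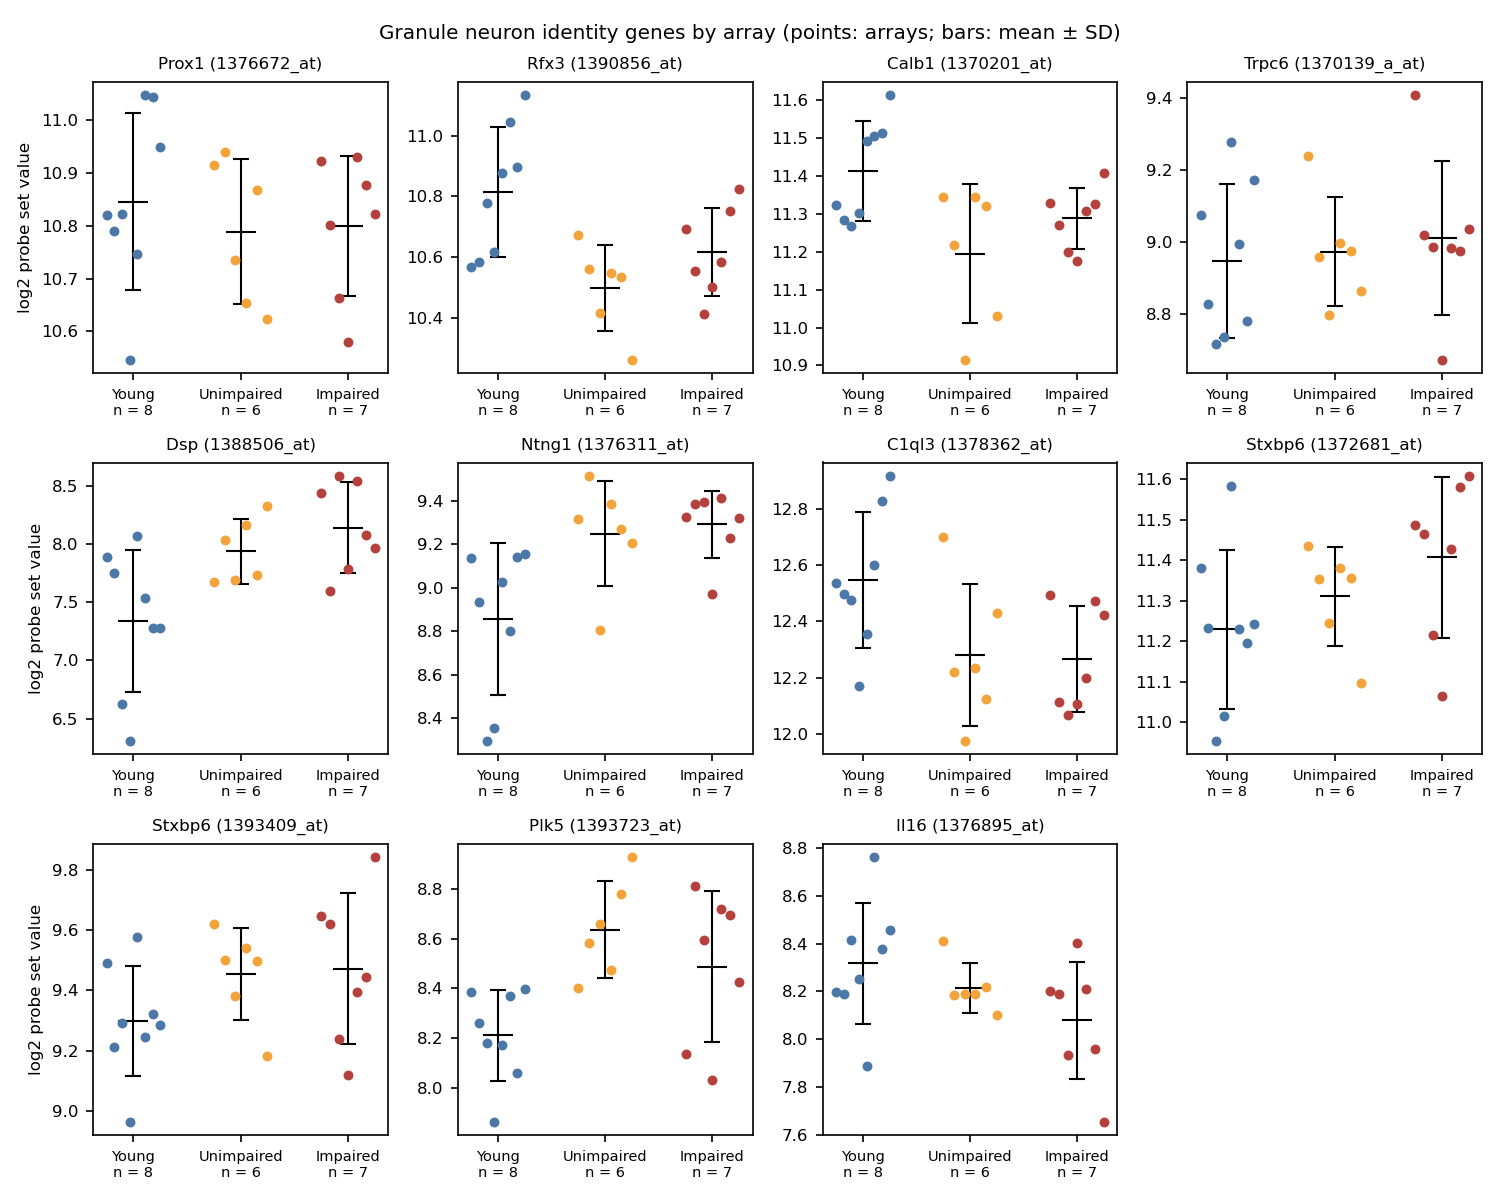
Log2 probe set values (y axis) of the 11 probe sets of the identity genes that passed the filter, in young (n = 8), unimpaired (n = 6) and impaired (n = 7) rats (x axis). Each point is an array, its horizontal place within a group has no meaning, bars give the mean ± SD, and each panel has its own scale. Dsp, Ntng1 and Plk5 sit higher in most aged rats, with 2 young arrays far down for Dsp and Ntng1, while the groups overlap widely for Prox1 and Trpc6.

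The transcription factors come first. Prox1, the homeobox factor that specifies and maintains granule cell identity, ranged from 10.55 to 11.05 in young rats (median 10.82), from 10.62 to 10.94 in unimpaired rats (median 10.80) and from 10.58 to 10.93 in impaired rats (median 10.82). The groups overlapped over nearly their whole range, and young rats held both the lowest and the highest value. Aged rats had a lower mean, by a log2 difference of -0.05 ± 0.06 (moderated SE; 95% interval -0.19 to 0.08; limma adjusted p = 0.764). The second Prox1 probe set read between 2.05 and 2.10 on all arrays, below the filter.

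Rfx3 encodes a winged-helix factor of the RFX family, known for its part in cilia genes. Its values ran from 10.57 to 11.14 in young rats (median 10.83), from 10.26 to 10.67 in unimpaired rats (median 10.54) and from 10.41 to 10.83 in impaired rats (median 10.58). Young replicates 9 and 6 were the highest of all arrays and unimpaired replicate 8 the lowest, while the groups overlapped between 10.57 and 10.83. The aged mean lay below the young mean by a log2 difference of -0.26 ± 0.08 (95% interval -0.41 to -0.10), and 12 of 13 aged arrays lay below the young mean, but the difference did not pass (adjusted p = 0.106 in limma). It was -0.32 ± 0.09 in unimpaired rats (adjusted p = 0.0915) and -0.20 ± 0.09 in impaired rats (adjusted p = 0.355). Its second probe set lay between 3.47 and 4.68 and was above 4 on 3 arrays only, those of young replicates 6 and 7 and unimpaired replicate 4.

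Of the proteins that handle calcium and cation entry, Calb1 encodes calbindin, the calcium buffer that marks mature granule neurons. It ranged from 11.27 to 11.62 in young rats (median 11.41), from 10.91 to 11.34 in unimpaired rats (median 11.27) and from 11.18 to 11.41 in impaired rats (median 11.31). All 13 aged arrays lay below the young mean of 11.41, which was so for 2.91% of all probe sets, yet the ranges overlapped, because 4 young arrays lay between 11.27 and 11.32. Unimpaired replicates 4 and 8 were the lowest. The aged mean was lower by a log2 difference of -0.17 ± 0.06 (95% interval -0.30 to -0.05; limma adjusted p = 0.176). The difference was -0.22 ± 0.07 in unimpaired rats (adjusted p = 0.134) and -0.12 ± 0.07 in impaired rats (adjusted p = 0.490). Trpc6, a calcium-permeable cation channel, ranged from 8.71 to 9.28 in young rats (median 8.91), from 8.80 to 9.24 in unimpaired rats (median 8.97) and from 8.67 to 9.41 in impaired rats (median 8.98). Impaired rats held its lowest and its highest value, and the aged mean differed by 0.04 ± 0.09 (95% interval -0.13 to 0.22; limma adjusted p = 0.853).

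The adhesion and junction proteins had the largest differences of the set between aged and young rats, although in unimpaired rats alone Plk5 (0.43) exceeded Ntng1 (0.39). Dsp encodes desmoplakin, which ties desmosomes to intermediate filaments and is used as a marker of the granule cell layer. It ran from 6.31 to 8.07 in young rats (median 7.41), from 7.67 to 8.32 in unimpaired rats (median 7.88) and from 7.60 to 8.59 in impaired rats (median 8.08). Young replicates 3 and 4, at 6.63 and 6.31, lay below all others, and the young group spread most (SD 0.61, against 0.28 and 0.39 in the aged groups). All 13 aged arrays lay above the young mean of 7.34, as for 2.36% of all probe sets, and 6 of them above the highest young array. The aged mean was higher by a log2 difference of 0.70 ± 0.20 (95% interval 0.29 to 1.10, or 1.22-fold to 2.15-fold), above those of 99.8% of the probe sets tested, and did not pass (adjusted p = 0.0916 in limma). It passed when young replicate 5, the highest young array, was left out (0.80, limma adjusted p = 0.0396). Without young replicate 4 or young replicate 3, the 2 low arrays, it was smaller. The values were 0.55 (limma adjusted p = 0.147) and 0.59 (limma adjusted p = 0.159). The difference was 0.80 ± 0.23 in impaired rats (95% interval 0.33 to 1.27; adjusted p = 0.121) and 0.59 ± 0.24 in unimpaired rats (adjusted p = 0.202). The second Dsp probe set read 1.29 to 1.33 throughout.

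Ntng1 encodes netrin-G1, a GPI-anchored adhesion protein of axons that organises synapses on the partner cell. Its values were 8.30 to 9.16 in young rats (median 8.98), 8.81 to 9.51 in unimpaired rats (median 9.29) and 8.97 to 9.41 in impaired rats (median 9.33). The same young replicates, 3 and 4, were lowest at 8.30 and 8.35. Apart from unimpaired replicate 4 (8.81) and impaired replicate 4 (8.97), every aged array, 11 of 13, lay above the highest young array. Aged rats had a higher mean, by 0.41 ± 0.11 (95% interval 0.18 to 0.65), with a limma adjusted p of 0.0836. The call was sensitive to 1 array and to the scaling. It passed without unimpaired replicate 4 (0.46, limma adjusted p = 0.0461) and after quantile normalization (0.44, limma adjusted p = 0.0433). Without young replicate 3 or young replicate 4 the difference was smaller. The values were 0.33 (limma adjusted p = 0.139) and 0.34 (limma adjusted p = 0.142). The difference was 0.44 ± 0.13 in impaired rats (adjusted p = 0.141) and 0.39 ± 0.14 in unimpaired rats (adjusted p = 0.153).

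Of the synaptic proteins, C1ql3 encodes a secreted C1q-like protein that organises synapses. It ranged from 12.17 to 12.92 in young rats (median 12.52), from 11.98 to 12.70 in unimpaired rats (median 12.23) and from 12.07 to 12.50 in impaired rats (median 12.20). Young replicates 7 and 9 were the highest, unimpaired replicate 1 alone among aged rats lay above the young mean, and all groups overlapped. In aged rats the mean was lower by a log2 difference of -0.27 ± 0.10 (95% interval -0.48 to -0.07; limma adjusted p = 0.187), and by nearly the same amount in impaired (-0.28 ± 0.11) and unimpaired rats (-0.27 ± 0.12). Its second probe set read 2.31 to 2.39.

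Stxbp6 encodes amisyn, which binds SNARE proteins of vesicle fusion, and was read by 2 probe sets whose values correlated over the 21 arrays (r = 0.855). The brighter ran from 10.95 to 11.58 in young rats (median 11.23), from 11.10 to 11.43 in unimpaired rats (median 11.35) and from 11.06 to 11.61 in impaired rats (median 11.47). The dimmer ran from 8.96 to 9.58, from 9.18 to 9.62 and from 9.12 to 9.84 in the same order. For both, the aged and young ranges overlapped and 10 of 13 aged arrays lay above the young mean. Above the highest young array lay 1 of 13 aged arrays for the brighter and 4 of 13 for the dimmer. The aged differences were 0.13 ± 0.08 (limma adjusted p = 0.460) and 0.16 ± 0.09 (adjusted p = 0.395).

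The remaining genes encode a kinase-like protein and a cytokine. Plk5, a member of the polo-like kinase family, is expressed in brain. It ranged from 7.86 to 8.40 in young rats (median 8.22), from 8.40 to 8.93 in unimpaired rats (median 8.62) and from 8.03 to 8.81 in impaired rats (median 8.60). It was the only member whose unimpaired and young arrays did not overlap, as for 0.949% of all probe sets, but the closest arrays, young replicate 9 and unimpaired replicate 1, differed by less than the rounding of the values given. Impaired replicates 1 and 4 lay among the young arrays, at 8.14 and 8.03. The aged mean was higher by 0.35 ± 0.10 (95% interval 0.14 to 0.56; limma adjusted p = 0.0938). Without impaired replicate 4 it passed, at 0.39 (limma adjusted p = 0.0390), and without young replicate 4, the lowest young array, it was 0.30. The difference was 0.43 ± 0.12 in unimpaired rats (adjusted p = 0.0819) and 0.28 ± 0.11 in impaired rats (adjusted p = 0.309).

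For the other comparisons the arrays of all members overlapped, where the shares of all probe sets without overlap were 0.316% for impaired against young, 1.05% for impaired against unimpaired and 0.0857% for aged against young. Il16, the precursor of a secreted T cell chemoattractant with a neuronal form, ranged from 7.89 to 8.76 in young rats (median 8.31), from 8.10 to 8.41 in unimpaired rats (median 8.19) and from 7.65 to 8.40 in impaired rats (median 8.19). Young replicate 6 was the highest and impaired replicate 8 the lowest. The aged mean was lower by a log2 difference of -0.17 ± 0.09 (95% interval -0.37 to 0.03; limma adjusted p = 0.422), with -0.24 ± 0.11 in impaired rats (adjusted p = 0.368) and -0.10 ± 0.11 in unimpaired rats (adjusted p = 0.688).

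**Figure D2:**
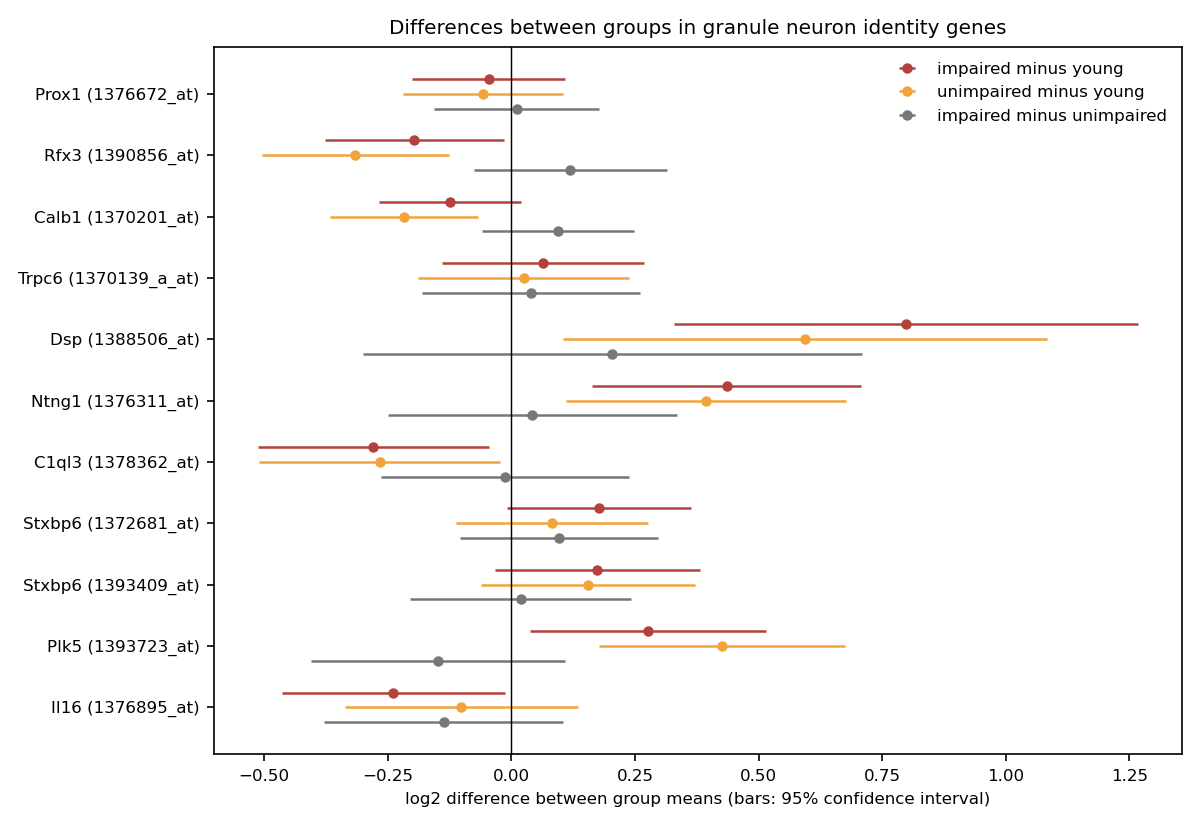
Log2 difference between group means (x axis) for each identity gene probe set (y axis), for impaired minus young, unimpaired minus young and impaired minus unimpaired rats. Points are limma estimates and bars their 95% confidence intervals, unadjusted. The impaired minus unimpaired interval includes 0 for all 11 probe sets, and the Dsp estimates lie farthest from 0 in both comparisons with young rats.

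Memory status among aged rats was compared directly. The interval of the impaired minus unimpaired difference included 0 for all 11 probe sets, with limma adjusted p values from 0.572 to 0.971. Its width shows what sizes remain possible. For Prox1 the interval ran from -0.16 to 0.18, for Calb1 from -0.06 to 0.25, for C1ql3 from -0.26 to 0.24 and for Rfx3 from -0.08 to 0.31. For Dsp, whose arrays spread most, it ran from -0.30 to 0.71, for Ntng1 from -0.25 to 0.33 and for Plk5 from -0.41 to 0.11. For Trpc6 it was -0.18 to 0.26, for Il16 -0.38 to 0.11 and for the brighter Stxbp6 probe set -0.10 to 0.30. The median difference over all probe sets was 0.05, and the median of the 10 genes was 0.04.

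Beyond the group means, some identity genes varied together among rats of the same group. After each group mean was subtracted, 37 of the 45 pairs of genes had a positive correlation over the 21 arrays, with a median r of 0.331, and 13 pairs, all positive, had an adjusted permutation p below 0.05. Only 5 of these also did so by rank. Correlations between a member and the other probe sets tested were also mostly positive, 62.6% of them, with a median r of 0.09. For each of the 13 pairs, between 0.125% and 7.58% of the probe sets tested had an r with the pair's first gene as far from 0. Which gene came first followed the order of the gene list in the opening, and the share from the other gene, which can differ, was not computed. Counted this way, the share was under 1% for 4 pairs, described next, and over 4% for 6 pairs, 5 of which include Calb1. Rfx3 and Calb1 varied together most (r = 0.809, permutation p = 5e-05, adjusted p = 0.00225; rho = 0.799, permutation p = 3e-05, adjusted p = 0.00135). Without the 2 arrays farthest from the median of Rfx3, r was 0.782, and the share of probe sets as far from 0 was 0.125%. This pair passed in all 21 repeats that left out 1 array, and after quantile normalization (r = 0.685, adjusted p = 0.0248). Rats with high Rfx3 for their group thus tended to have high Calb1 for their group.

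Trpc6 and Stxbp6 followed (r = 0.738, permutation p = 0.00037, adjusted p = 0.00832; rho = 0.752, permutation p = 0.00012, adjusted p = 0.00270), with r = 0.722 without 2 arrays and 0.231% of probe sets as far from 0. This pair passed in 20 of 21 repeats that left out 1 array, the exception being impaired replicate 4 (adjusted p = 0.0538). Prox1 and Rfx3 correlated at r = 0.673 (permutation p = 0.00241, adjusted p = 0.0299; rho = 0.697, permutation p = 0.00155, adjusted p = 0.0174; r = 0.640 without 2 arrays; 0.876% of probe sets as far from 0), but the pair did not pass after quantile normalization (r = 0.551, adjusted p = 0.107). Dsp and Ntng1, whose lowest values fell on the same 2 young rats, had r = 0.657 (permutation p = 0.00728, adjusted p = 0.0328), but not by rank (rho = 0.542, permutation p = 0.0237, adjusted p = 0.107). Without the 2 arrays farthest from the Dsp median, r was 0.544, and 0.290% of probe sets were as far from 0 as with all arrays. The number of pairs that passed depended on single arrays: it was 1 without impaired replicate 4, 2 without young replicate 3 or young replicate 4, 4 without unimpaired replicate 4 and 8 without young replicate 9. All arrays share a scaling step, and after quantile normalization 2 pairs passed, Rfx3 with Calb1 and Trpc6 with Stxbp6.

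**Figure D3:**
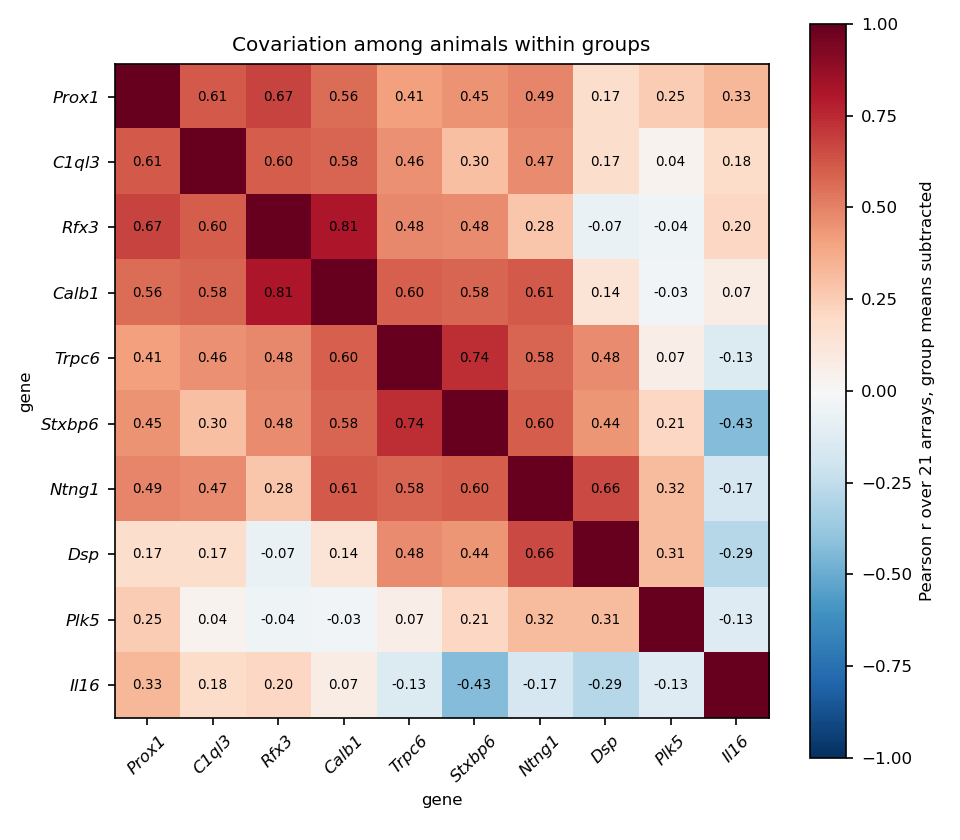
Pearson r (colour and printed value) between the representative probe sets of each pair of the 10 identity genes over 21 arrays, with group means subtracted; both axes list the genes. Pairs among Prox1, C1ql3, Rfx3, Calb1, Trpc6, Stxbp6 and Ntng1 are all positive, from 0.28 (Rfx3 and Ntng1) to 0.81 (Rfx3 and Calb1). Dsp reaches 0.66 with Ntng1 but is -0.07 with Rfx3. Values for Plk5 and Il16 run from -0.43 (Stxbp6 and Il16) to 0.33 (Prox1 and Il16), so they overlap the lowest of the first group.

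**Figure D4:**
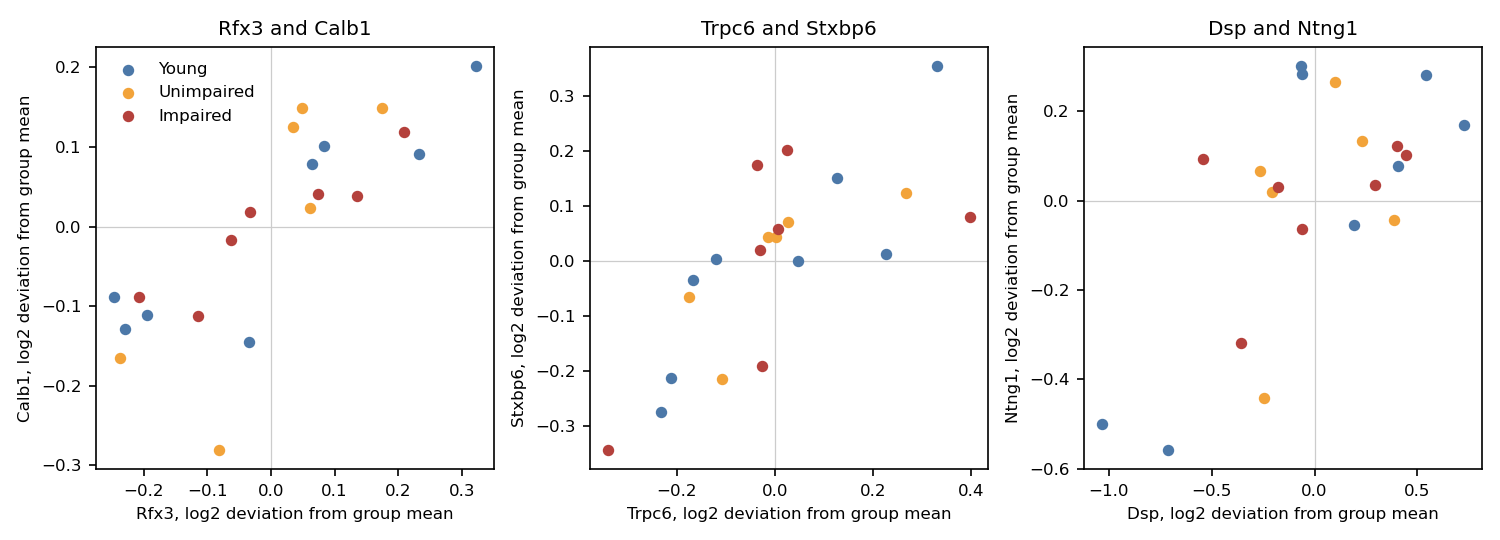
Log2 deviation of each array from its group mean for Rfx3 (x axis) and Calb1 (y axis), for Trpc6 and Stxbp6, and for Dsp and Ntng1; points are arrays, coloured by group. Rfx3 and Calb1 vary together (r = 0.809), while in the Dsp and Ntng1 panel 2 young arrays lie alone at the lower left.

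Plk5 and Il16 had no correlation above 0.331 with another member. No pair with either gene had an adjusted p below 0.05, and the lowest correlation of all, between Stxbp6 and Il16, was r = -0.432 (permutation p = 0.0883, adjusted p = 0.173; rho = -0.299, permutation p = 0.223, adjusted p = 0.372; r = -0.0993 without 2 arrays).

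The genes most like each member within groups were found by r over the 21 arrays, given here as a description with no test. The search covered probe sets of other genes that passed the filter and carry 1 symbol. For Rfx3 they were Ankrd10 (r = 0.879) and Ptges3 (r = 0.870), and for Calb1 they were Dld (r = 0.876) and Rnf111 (r = 0.875). For Prox1 they were Dgkh (r = 0.800) and Sh2d5 (r = 0.797), and for C1ql3 they were Zbtb20 (r = 0.851) and Fam81a (r = 0.848). For Trpc6 they were Ccnl1 (r = 0.798) and Tram1 (r = 0.795), and for Stxbp6 they were Pcbp2 (r = 0.865) and Cracdl (r = 0.834). For Ntng1 they were Dek (r = 0.881, rho = 0.747) and Ranbp2 (r = 0.822, rho = 0.540). Those for Dsp were Extl2 (r = 0.747, rho = 0.768) and Arpp21 (r = 0.739, rho = 0.551). Without the 2 arrays farthest from the Dsp median, r with Arpp21 was 0.536. For Il16 they were Wnt4 (r = 0.915) and Zfp688 (r = 0.894), and for Plk5, the member with the weakest neighbours, Prkar2b (r = 0.728) and Mtg2 (r = 0.675). Of these 20 genes only Zbtb20 is on the list of other granule neuron genes below, and none of the 20 passed between aged and young rats.

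The identity genes were set beside other markers of the same lineage and of neighbouring cells. Of 20 other granule neuron genes, 16 were on the array and 14 passed the filter (Tdo2 and Pdzd2 did not). Between aged and young rats 5 of the 14 differences were positive and 9 negative, with a median of -0.02, and 1 gene rose: Pdyn, which encodes prodynorphin, the opioid precursor of mossy fibres (0.36 ± 0.07; limma adjusted p = 0.0138). Its mean was 10.26 in young, 10.63 in unimpaired and 10.62 in impaired rats. Of 13 immature granule neuron genes on the array, 6 passed the filter, 1 of them, Neurod1, also on the previous list. All 6 differences were negative, with a median of -0.28, and 3 genes fell, among them Tubb2b, a tubulin of growing neurons (-0.51 ± 0.06; limma adjusted p = 0.000108) and Nrep (-0.42 ± 0.07; adjusted p = 0.00389). Of all probe sets, 43.2% had a positive difference and 1.11% passed. The mean log2 level of the immature list lay between 10.08 and 10.38 in young, 9.78 and 9.94 in unimpaired and 9.84 and 10.03 in impaired rats. It rests on those 6 genes, because Calb2, Dcx, Draxin, Eomes, Igfbpl1, Prokr2 and Sox11 did not pass the filter. The mean level of the 10 identity genes lay between 9.52 and 10.03 in young, 9.74 and 10.01 in unimpaired and 9.73 and 10.04 in impaired rats, so that the groups overlapped.

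Some markers of other cells in the dissection also differed between aged and young rats, though not equally in both aged groups. Against young rats, oligodendrocyte differences were negative for 9 of 9 genes in unimpaired rats (3 fell). In impaired rats they were negative for 5 of 9 (0 fell). Endothelial differences were negative for 7 of 7 genes in unimpaired rats (2 fell) and 3 of 7 in impaired rats (1 fell). All probe sets together also leaned lower in unimpaired rats, as given above. The counts that follow are for both aged groups together. Oligodendrocyte genes had 8 of 9 negative differences and 3 that fell, among them Mal (-0.48 ± 0.09; limma adjusted p = 0.0139) and Cldn11 (-0.43 ± 0.09; adjusted p = 0.0154), with list levels of 9.52 to 9.90 in young, 9.04 to 9.49 in unimpaired and 9.33 to 9.85 in impaired rats. Of 9 astrocyte genes 3 differences were positive and 6 negative, with a median of -0.06, and only Gfap rose (0.40 ± 0.08; limma adjusted p = 0.0154). Of 9 microglial genes 8 differences were positive, with a median of 0.07, and C1qa rose (0.45 ± 0.10; adjusted p = 0.0280). Of 7 endothelial genes 6 differences were negative, with a median of -0.08, and Slco1c1 fell (-0.53 ± 0.06; adjusted p = 3.16e-05). Between aged and young rats, no gene passed among the 10 CA3 and CA2, 5 CA1, 2 mossy cell, 7 interneuron, 2 choroid plexus and 6 general neuronal genes measured, and the median of the last was -0.0011. Of 10 meningeal genes only Igf2 passed the filter, at 6.63 to 7.32 in young, 5.63 to 6.84 in unimpaired and 5.86 to 9.15 in impaired rats. Within groups, 0 of 120 correlations between the 10 identity genes and the levels of these 12 lists had an adjusted permutation p below 0.05. The smallest p was for Rfx3 and the immature neuron list (r = 0.684, permutation p = 0.00206, adjusted p = 0.247; rho = 0.653, permutation p = 0.00316; r = 0.525 without 2 arrays). The part of these cells in the differences between groups was not tested. Impaired replicates 2, 3 and 7 had the highest Igf2 of all arrays (9.15, 8.58 and 7.53), while young replicate 5, at 6.88, lay within the young range. Without these 4 arrays the aged differences were 0.82 for Dsp (limma adjusted p = 0.0840), 0.42 for Ntng1 (0.197), 0.27 for Plk5 (0.309), -0.23 for Rfx3 (0.279), -0.15 for Calb1 (0.406) and -0.28 for C1ql3 (0.302). For Dsp, leaving out young replicate 5 alone already gave 0.80, so these values do not isolate the arrays with high Igf2.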

How the data were processed

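Values are the log2 probe set summaries that the authors deposited for 21 dentate gyrus arrays, which the submitters' processing notes credit to GCRMA (version not given in the sources used here). Of 24 labelled arrays, 3 have no values and were left out. The labels name no batch, and the model has none. Each array is a separate rat, per the labels.

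After 57 controls were left out of 31099 probe sets, those above a log2 value of 4 on at least 6 arrays were tested. Symbols came from the platform annotation: 20826 non-control probe sets have 1, 436 have several and 9780 have none. Group means were compared by limma 3.58.1 (lmFit, eBayes, run under R 4.3.3), with 3 groups in 1 model and 18 residual degrees of freedom, adjusted by Benjamini and Hochberg over all 15177 probe sets and called at an adjusted p below 0.05. Aged means the average of both aged group means. The procedure was run on simulated data with independent noise for each probe set and planted changes larger than most differences given here. It therefore says little about those differences. Intervals are unadjusted 95% confidence intervals.

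Correlations used values with group means subtracted, the brightest probe set of each gene, and 100000 permutations within groups, adjusted over the 45 pairs (or 120 gene and list relations), with tests two-sided. All members were named; of each marker list up to 2 called genes; and for each member the 2 genes with the highest r. The members, lists and rules were chosen with earlier results of these data known. Alternatives were the filter, the scaling, array weights, eBayes with trend and robust settings, 2 groups alone, a replicate block, exact permutation, and leaving out arrays. Promoter sequences are from RefSeq, and motif searches used exact letters.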

Additional observations from a re-analysis of the deposited data

Results flagged for a closer look

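Of 45 groups of values examined (15 probe sets in 3 groups), 2 held an array far from the rest of its group, and chance alone gives about 1 in 20. Impaired replicate 4 had the lowest Ntng1 value of its group, 8.97, with the next at 9.23. Unimpaired replicate 8 had the highest value of its group for the C1ql3 probe set below the filter, 2.39, with the next at 2.35.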

How the results depend on the processing

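Over 1364 alternative values of the 11 probe sets in 4 comparisons, 1328 kept their direction and their side of the threshold, 4 passed that had not, and 32 changed sign, the cause of which was not tested. The count of member probe sets called for aged against young rats was 1 after quantile normalization (Ntng1) and 0 to 1 when 1 array was left out; in the other comparisons and in the F test it was 0 under every alternative run. The pair count of 13 became 5 with Spearman's rho, 2 after quantile normalization, and 1 to 15 when 1 array was left out (alternatives chosen after seeing the data).

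The sign changes lay in small differences. For impaired minus unimpaired rats, median centring gave Prox1 -0.0050; quantile normalization gave Prox1 -0.056, Trpc6 -0.029, Ntng1 -0.024 and the dimmer Stxbp6 probe set -0.050; array weights gave Prox1 -0.021, Ntng1 -0.028, Stxbp6 -0.017 and C1ql3 0.0037. C1ql3 was 0.026 without impaired replicates 2, 3 and 7 and young replicate 5. Leaving out 1 array gave ranges of -0.023 to 0.047 for Prox1, -0.027 to 0.096 for Trpc6, -0.046 to 0.095 for Ntng1, -0.073 to 0.071 for C1ql3 and -0.043 to 0.077 for that Stxbp6 probe set. Trpc6 ranged from -0.0025 to 0.12 for impaired minus young and from -0.029 to 0.072 for unimpaired minus young rats.

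Replicate numbers recur across groups, and whether they pair the arrays was not settled. Of 17 same-numbered pairs, 4 had correlated deviations over 0.1 (range -0.118 to 0.200), with no differently numbered pairs compared. A block by replicate number changed the SE of the aged difference from 0.086 to 0.048 for Trpc6 and from 0.196 to 0.207 for Dsp. The correlations between genes took no account of replicate number. With the replicate number as a block the aged differences were 0.79 for Dsp (limma adjusted p = 0.112), 0.51 for Ntng1 (0.0594) and 0.14 for Trpc6 (0.191), C1ql3 was 0.0044 for impaired minus unimpaired rats, and 0 members passed.

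Over all probe sets, the calls for impaired and unimpaired against young, impaired against unimpaired and aged against young were 78, 172, 0 and 168. They were 114, 9, 0 and 76 with the replicate block, 29, 96, 0 and 86 without the 4 arrays named above, and 36 to 161, 59 to 222, 0 to 4 and 89 to 239 when 1 array was left out. With no filter they were 33, 67, 0 and 90, and with only the 2 groups compared the first 3 were 33, 69 and 1. Signal near background limits the 4 probe sets below the filter, which carry no estimate here.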
